A study of Mus musculus with 16 samples.

Results

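A set of 9 genes used as markers of pericytes were followed across whole mouse retinas: Kcnj8, Abcc9, Higd1b, Anpep, Ndufa4l2, Rgs5, Pdgfrb, Cspg4 and Vtn. They were taken by name, with every probe that carried the current or an older symbol, which gave 19 of the 43426 probes and 9 of the 18470 named genes with a probe above the filter. All 19 probes passed the filter on dim probes, and each was well above background in all 16 samples. The genes were selected on earlier results of these arrays, among them the differences of VEGF-A from hFc. In the comparisons that use VEGF-A or VEGF Trap samples their values are therefore given as a description, with no test. A test is given for Dll4-Fc against hFc, which shares the hFc arrays with those earlier results. The gene lists set beside these genes were also chosen with earlier results known, and their counts and adjusted p-values carry that limit.

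The retinas came from C57Bl6 pups. The labels give an injection into the vitreous at 8 days of age with 1 µg of VEGF-A (n = 5), with 4 µg of Dll4-Fc (n = 4) or with 4 µg of hFc (n = 4), and the retina was taken 24 h later. VEGF Trap was given to a further group (n = 3), for which the labels state neither the dose nor the age. VEGF-A is the main growth factor for vessels of the retina, VEGF Trap is a soluble decoy receptor that binds it, Dll4-Fc is a soluble form of the Notch ligand Dll4, and hFc is the Fc control. VEGF-A and hFc therefore differ in dose as well as in agent. The titles of hFc 1 and hFc 2 begin with the same code, and so do those of VEGF-A 4 and VEGF Trap 3, with no word on what a code stands for, so hFc may hold fewer than 4 independent samples. Whether each sample was a separate animal is not stated, and the p-values measure only the spread between samples, which may be technical.

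Pericytes sit on the outer wall of capillaries, share its basement membrane with the endothelium and are drawn to new vessels by PDGF-B, which endothelial cells release and the receptor PDGFRB on pericytes binds. They control capillary diameter and help to seal the barrier between blood and retina, and their loss is an early sign of diabetic retinopathy. Kir6.1 and SUR2, the products of Kcnj8 and Abcc9, form the ATP-sensitive potassium channel of these cells. Several of the other genes are not theirs alone in a retina: Cspg4, which encodes the NG2 proteoglycan, is also made by oligodendrocyte progenitors, Anpep by myeloid cells, and Vtn by photoreceptors. In RNA from whole retina, fewer cells of a type and less RNA per cell cannot be told apart.

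Each array set Cy3-labelled RNA of a sample against a Cy5-labelled pool of RNA from the experiment. A level is given as log2 of sample over pool, so that 0 is the level of the pool and a difference of 1 is a doubling. Levels are compared between samples for the same probe. On each array 84.9 to 91.0% of spots had a Cy3 signal well above background. Outlier marks, which took a spot out of use, numbered 12 to 213 on an array of the 3 treatments and 2350 to 2599 on an hFc array. All 4 hFc arrays shared slide 1 and all 4 Dll4-Fc arrays shared slide 2. VEGF-A 1 and 2 lay on slide 3 with VEGF Trap 1 and 2, and VEGF-A 3, 4 and 5 lay on slide 4 with VEGF Trap 3. In every comparison with hFc, slide and treatment cannot be told apart.

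The genes that lay farthest apart after VEGF-A, Kcnj8 and Cspg4, were each read by 3 probes of 60 bases. The first 30 bases of each probe are shown to identify what was measured, from 5′ to 3′ and with no capitals.
Kcnj8 probe 1: cactcatcaccagttcagggctggagcaca
Kcnj8 probe 2: actgtgtcctgatgactgagagacaatccg
Kcnj8 probe 3: cacgggtcatcatgaatatgttcaaatcta
Cspg4 probe 1: tctcctcaagactagggagcaggcaaacga
Cspg4 probe 2: ctgacccagaactattgcagttttgccgga
Cspg4 probe 3: ggttttccctcatgtctcaggcccaaaata
Probes are numbered from the brightest in Cy3, and probe 1 is meant where no number is given. The third probe of each gene was dim, with mean log2 Cy3 signals of 6.74 for Kcnj8 and 4.85 for Cspg4.

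The promoters of Kcnj8, Abcc9 and Cspg4 are printed because the first 2 genes are neighbours on chromosome 6, with 0 protein-coding genes between them, and were lower together after VEGF-A, whereas Cspg4 was higher. They come from RefSeq, build GRCm38.p6, and cover 250 bases before to 50 after the listed start, read 5′ to 3′ on the strand of the gene. Capitals mark the RBPJ core TGGGAA, the letters bound by the DNA partner of Notch, and a site of the muscle factor MEF2. The windows are chr6:142571565-142571864 on the minus strand for Kcnj8, chr6:142702225-142702524 on the minus strand for Abcc9 and chr9:56864854-56865153 on the plus strand for Cspg4.
Kcnj8: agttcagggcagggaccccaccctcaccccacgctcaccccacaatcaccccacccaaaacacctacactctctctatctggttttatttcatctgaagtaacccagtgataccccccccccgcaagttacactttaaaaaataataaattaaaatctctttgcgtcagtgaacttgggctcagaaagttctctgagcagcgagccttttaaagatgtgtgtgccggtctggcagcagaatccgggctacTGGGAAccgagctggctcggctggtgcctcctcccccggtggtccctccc
Abcc9: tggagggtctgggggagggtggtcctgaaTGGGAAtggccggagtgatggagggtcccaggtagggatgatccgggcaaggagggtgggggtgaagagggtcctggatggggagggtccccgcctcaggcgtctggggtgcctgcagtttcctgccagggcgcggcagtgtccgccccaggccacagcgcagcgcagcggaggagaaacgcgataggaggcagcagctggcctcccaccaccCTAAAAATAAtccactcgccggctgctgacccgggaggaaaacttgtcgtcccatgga
Cspg4: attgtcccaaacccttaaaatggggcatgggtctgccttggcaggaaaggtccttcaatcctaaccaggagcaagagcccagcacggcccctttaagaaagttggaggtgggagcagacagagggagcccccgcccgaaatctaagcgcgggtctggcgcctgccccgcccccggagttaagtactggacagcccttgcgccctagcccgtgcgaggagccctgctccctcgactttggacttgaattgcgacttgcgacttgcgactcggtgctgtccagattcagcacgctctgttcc
The RefSeq table held 6 of the 9 promoters, those of Kcnj8, Abcc9, Anpep, Rgs5, Cspg4 and Vtn. Searched on both strands, the RBPJ core was in 3 of the 6 (1 match each in Kcnj8 and Abcc9, 3 matches in Vtn), against 25.6% of all 32851 promoters of that length. The MEF2 site was in 1 of the 6, that of Abcc9, against 3.19% of all promoters. The hypoxia-factor core ACGTG was in 0 of the 6, against 19.6%, and the CArG box of serum response factor in 0 of the 6, against 1.63%. A match is a run of letters, not a site shown to be bound.

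After VEGF-A, 5 of the 9 genes (Kcnj8, Ndufa4l2, Anpep, Higd1b and Abcc9) were lower than after hFc in every sample, at log2 differences of −0.82 to −2.13, and 2 (Cspg4 and Pdgfrb) were higher in every sample. Rgs5 and Vtn overlapped with hFc. By probe, 11 of 19 were lower and 3 were higher without overlap, where 7.38% of all probes were lower and 7.52% higher in that way. This contrast served to choose the genes, so nothing is read from the count. After VEGF Trap 5 of the 9 genes (Kcnj8, Abcc9, Higd1b, Anpep and Cspg4) were lower than after hFc in every sample, Ndufa4l2 was higher, and Rgs5, Pdgfrb and Vtn overlapped with hFc. By probe, 11 of 19 were lower and 1 was higher without overlap, where 13.2% of all probes were lower and 10.5% higher in that way. Several of the 11 read the same gene, and Cspg4 probe 2 had 1 hFc value. The earlier results used the same hFc arrays, so nothing is read from this count either. After Dll4-Fc, 0 of the 9 genes passed the limma test against hFc by their brightest probe at an adjusted p of 0.05. At that adjusted p, 3.47% of all genes were higher and 1.68% lower. At an unadjusted p under 0.05, 1 of the 9 was lower, and no share of all genes was taken at that threshold.

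**Figure D1:**
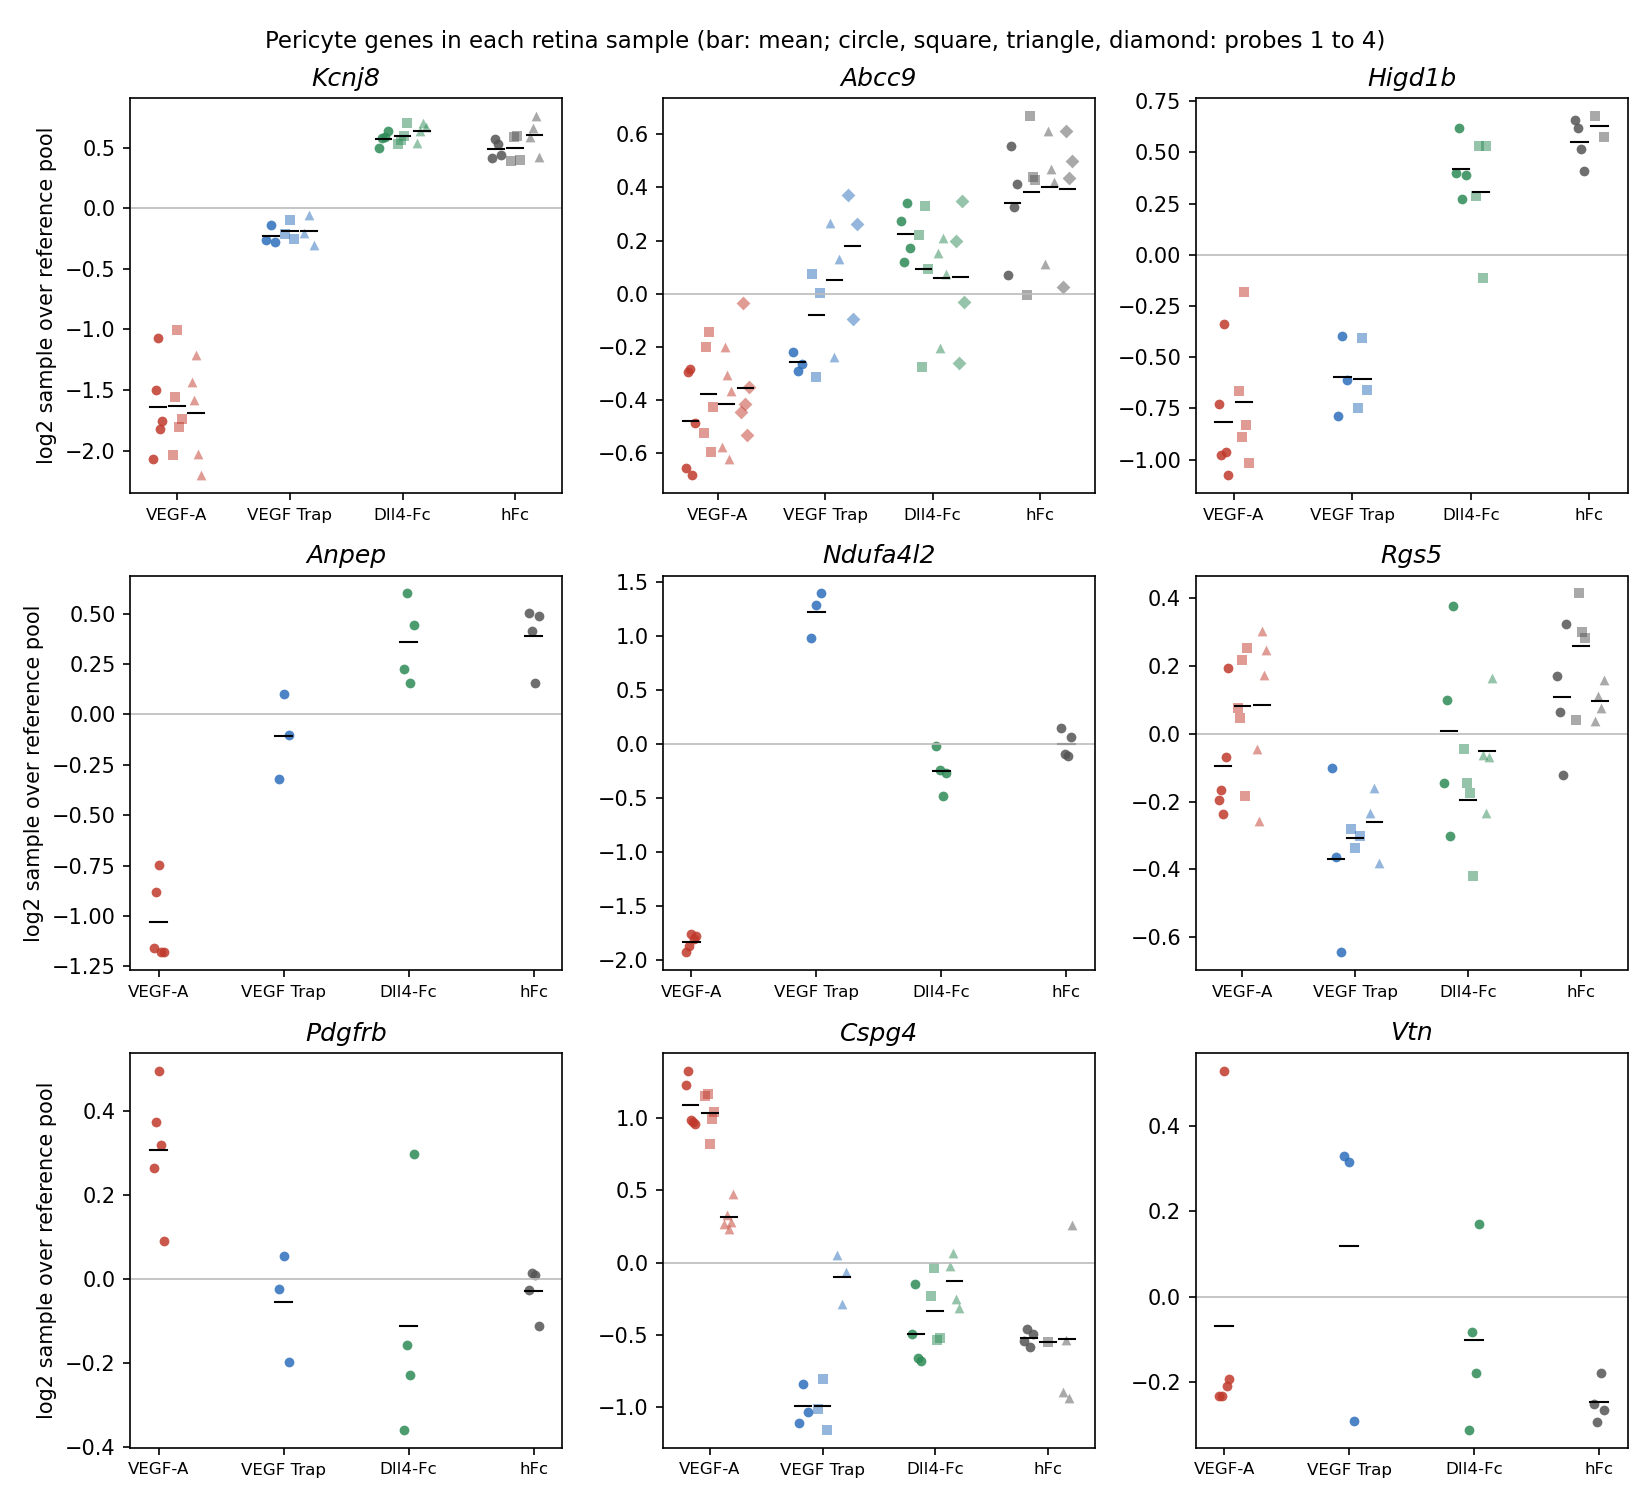
Level of the 9 pericyte genes in each of the 16 samples, as log2 of sample over reference pool, with each panel on its own scale. Points are samples, symbols are probes numbered from the brightest, and bars are group means. Kcnj8 lay between −2.07 and −1.07 in the 5 VEGF-A samples and above 0.40 in all hFc samples, Ndufa4l2 was low after VEGF-A and high after VEGF Trap, and Cspg4 ran the other way.

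Kcnj8 encodes Kir6.1, the pore of the vascular ATP-sensitive potassium channel. Its level was −2.07, −1.50, −1.07, −1.82 and −1.75 in the 5 VEGF-A samples, −0.26, −0.14 and −0.28 in the VEGF Trap samples, 0.50, 0.58, 0.58 and 0.64 in the Dll4-Fc samples and 0.42, 0.57, 0.53 and 0.44 in the hFc samples. The VEGF-A samples were all below the VEGF Trap samples, which were all below the Dll4-Fc and hFc samples, and these last groups overlapped. Against hFc the log2 difference after VEGF-A was −2.13 (SE 0.147, a 4.38-fold lower level), and probes 2 and 3 gave differences of −2.12 and −2.30. Among 38886 probes ranked by this difference, the 3 Kcnj8 probes took places 6, 7 and 3 from the lowest. The same difference served to choose the genes, so nothing is read from these places. The VEGF-A sample least below the pool was VEGF-A 3, on all 3 probes.

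Kcnj8 was also lower after VEGF Trap, by less. The log2 difference of VEGF Trap from hFc was −0.71 (SE 0.167, a 1.64-fold lower level), with all 3 VEGF Trap samples below all 4 hFc samples, and probes 2 and 3 gave −0.68 and −0.79. Over the alternatives in processing the difference on probe 1 ran from −0.86 to −0.69. VEGF-A lay 1.42 below VEGF Trap (log2 difference −1.42, SE 0.160), with a value of −1.45 with slide as a block, −1.59 within slide 3 and −1.27 within slide 4. After Dll4-Fc the difference from hFc was 0.08 (SE 0.155, adjusted p = 0.897 by limma with Benjamini-Hochberg adjustment over all probes).

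Abcc9 encodes SUR2, the regulatory subunit that surrounds the Kir6.1 pore. Its 4 probes did not come from the same place. Probes 2, 3 and 4 are listed close together on the strand of the gene. Probe 1, the brightest, is listed in the opposite orientation and 161724 bases away from the nearest of them, a distance above the 114905 bases of Abcc9 in GRCm38.p6. It lies 18671 bases from the probe of Cmas, a sialic acid enzyme gene. Over the 16 arrays, probe 1 had a Pearson correlation of 0.87 with the mean of Abcc9 probes 2 to 4 and of 0.51 with the Cmas probe, whereas pairs among probes 2, 3 and 4 reached 0.93 to 0.97. Whether probe 1 reads Abcc9 transcripts was not tested, so the other 3 probes are given beside it.

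After VEGF-A all 4 Abcc9 probes were lower than after hFc, without overlap, at log2 differences of −0.82, −0.76, −0.82 and −0.75 for probes 1 to 4. Probe 2 read −0.53, −0.20, −0.14, −0.59 and −0.42 in the VEGF-A samples, 0.07, −0.31 and 0.00 in the VEGF Trap samples, 0.22, −0.27, 0.33 and 0.09 in the Dll4-Fc samples and −0.01, 0.67, 0.44 and 0.43 in the hFc samples. The hFc samples were spread widely because hFc 1 lay well below the other 3 on every Abcc9 probe. After VEGF Trap, probe 1 gave −0.60 (SE 0.123) without overlap, whereas probes 2, 3 and 4 gave −0.46, −0.35 and −0.21, and their samples overlapped with hFc. The separation of VEGF Trap from hFc was thus seen on the probe of uncertain target and on no other. After Dll4-Fc the 4 probes gave −0.12, −0.29, −0.35 and −0.33, with adjusted p of 0.299 to 0.774.

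The related channel genes Kcnj11 and Abcc8, which encode the Kir6.2 and SUR1 subunits found in neurons and islet cells, passed the limma test against hFc in 0 of 2 cases after each of VEGF-A, VEGF Trap and Dll4-Fc, and 1 was lower after VEGF-A at an unadjusted p under 0.05. Between VEGF-A and VEGF Trap, Abcc8 was lower after VEGF-A (log2 difference −0.73, adjusted p = 0.00953).

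Ndufa4l2, read by 1 probe that the files name BC064011, encodes a mitochondrial protein whose gene is a known target of hypoxia-inducible factor. Its level was −1.93, −1.87, −1.76, −1.81 and −1.78 in the VEGF-A samples, 0.98, 1.29 and 1.39 in the VEGF Trap samples, −0.02, −0.24, −0.48 and −0.27 in the Dll4-Fc samples and 0.15, −0.09, −0.11 and 0.06 in the hFc samples. Every VEGF-A sample was below every hFc sample and every VEGF Trap sample was above them, and of the other 8 genes only Cspg4 lay on opposite sides of hFc in these treatments without overlap, in the reverse direction. The VEGF-A level was 3.56-fold below hFc (log2 difference −1.83, SE 0.103) and the VEGF Trap level was 2.33-fold above it (log2 difference 1.22, SE 0.117). Between VEGF-A and VEGF Trap the log2 difference was −3.05 (SE 0.112), an 8.28-fold lower level after VEGF-A and the 7th lowest of 39787 probes. The VEGF-A arrays served to choose the genes, so nothing is read from that place. The Ndufa4l2 difference was −3.03 within slide 3 and −3.18 within slide 4. After Dll4-Fc its difference from hFc was −0.25 (SE 0.108, adjusted p = 0.325).

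Genes of the hypoxia response were set beside Ndufa4l2. Of 10 listed, 5 fell after VEGF-A against hFc and 0 rose (median log2 difference −0.45, against −0.05 over all 17953 genes tested), with Bnip3, a mitophagy receptor, at −1.19, Vegfa itself at −1.18 and Pdk1, which limits entry of pyruvate into mitochondria, at −0.81 (adjusted p = 6.04e-06, 4.95e-05 and 0.000239). After VEGF Trap 5 rose and 0 fell (median 0.76, against −0.04 over all genes), with Bnip3 at 1.03, Pdk1 at 0.88 and the glycolytic enzyme gene Pgk1 at 0.60 (adjusted p = 0.00136, 0.00346 and 0.00653). By gene, 4.22% of all fell after VEGF-A and 0.986% of all rose after VEGF Trap. Between VEGF-A and VEGF Trap 9 of the 10 were lower after VEGF-A, where 8.74% of all genes were lower. After Dll4-Fc 0 of 10 passed the limma test at an adjusted p of 0.05, and the differences ran from −0.37 to 0.80. At an unadjusted p under 0.05, 5 were higher and 1 was lower. The mean level of the 9 hypoxia genes with a value on every array was −0.98 to −0.49 in the VEGF-A samples, 0.47 to 0.63 in the VEGF Trap samples, −0.13 to 0.22 in the Dll4-Fc samples and −0.28 to −0.13 in the hFc samples. Its part in the values of Ndufa4l2 was not tested.

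Higd1b, a gene of the family of hypoxia-induced mitochondrial proteins that single-cell atlases of mouse vessels list as a pericyte marker, was lower after both VEGF-A and VEGF Trap. Probe 1 read −0.73, −0.98, −0.34, −0.96 and −1.08 in the VEGF-A samples, −0.79, −0.40 and −0.61 in the VEGF Trap samples, 0.40, 0.62, 0.27 and 0.39 in the Dll4-Fc samples and 0.66, 0.62, 0.52 and 0.41 in the hFc samples. The samples of VEGF-A and VEGF Trap overlapped, and both groups lay apart from the other 2 groups. Against hFc the log2 difference was −1.37 after VEGF-A and −1.15 after VEGF Trap (SE 0.156, a 2.22-fold lower level). Probe 2, with outlier spots on hFc 3 and hFc 4 left out, gave −1.34 after VEGF-A and −1.23 after VEGF Trap. Over the alternatives in processing the VEGF Trap difference on probe 1 ran from −1.25 to −1.05. VEGF-A and VEGF Trap differed by −0.22 (SE 0.149), at −0.26 within slide 3 and −0.18 within slide 4, and Dll4-Fc and hFc by −0.13 (SE 0.144, adjusted p = 0.805). The difference of Higd1b in VEGF Trap was opposite in sign to that of Ndufa4l2.

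Anpep encodes aminopeptidase N, or CD13, a surface enzyme of brain and retinal pericytes. Its single probe read −1.16, −0.88, −0.75, −1.18 and −1.18 in the VEGF-A samples, −0.32, 0.10 and −0.10 in the VEGF Trap samples, 0.23, 0.60, 0.16 and 0.44 in the Dll4-Fc samples and 0.50, 0.41, 0.16 and 0.49 in the hFc samples. The VEGF-A samples stood apart below all others, and the VEGF Trap samples lay between them and hFc. The log2 difference from hFc was −1.42 after VEGF-A, and −0.50 after VEGF Trap (SE 0.146). VEGF-A lay 0.92 below VEGF Trap (log2 difference −0.92), at −0.91 within slide 3 and −0.93 within slide 4. Of 7 microglia and myeloid markers, which share Anpep as a gene of myeloid cells, 0 passed the limma test against hFc after VEGF-A and 0 after VEGF Trap at an adjusted p of 0.05, with median differences of −0.02 and 0.15. At an unadjusted p under 0.05, 2 were lower after VEGF-A, and 2 were higher and 1 lower after VEGF Trap.

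**Figure D2:**
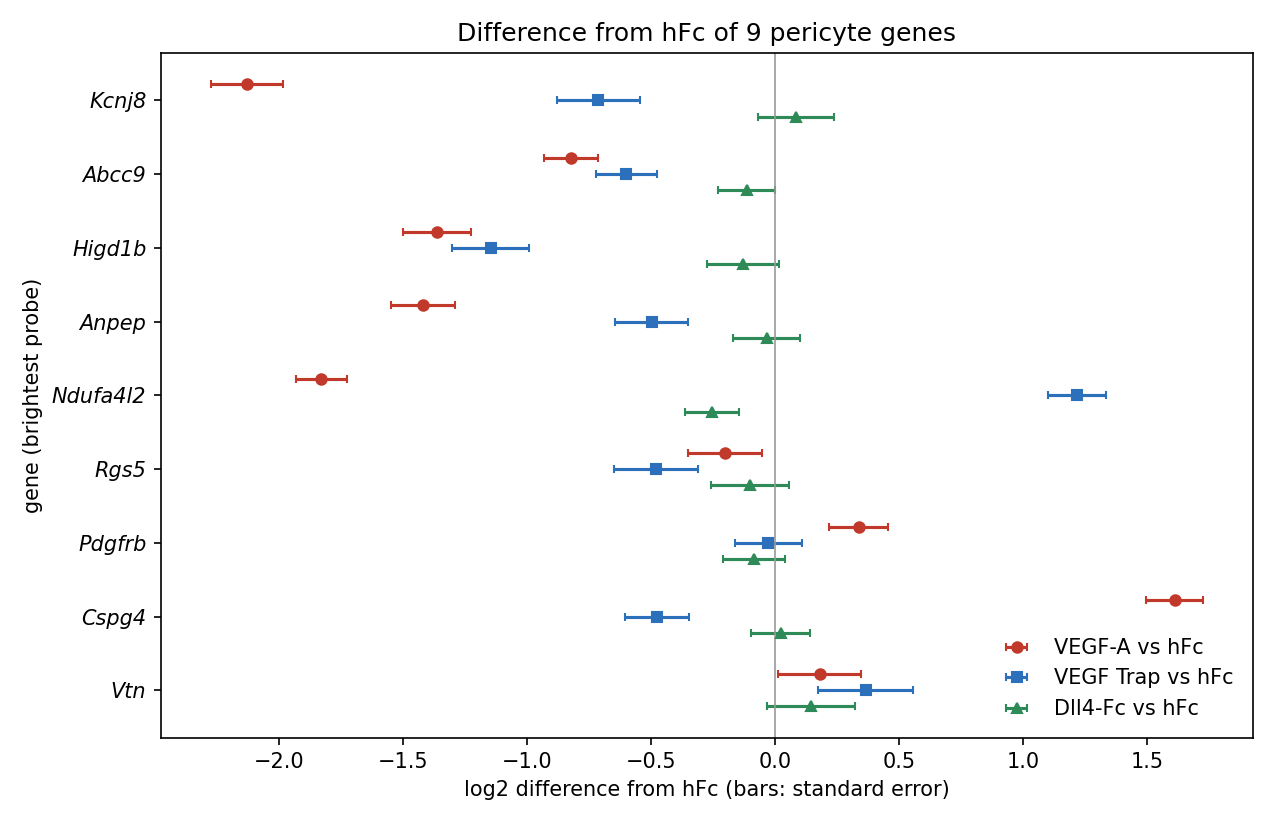
Log2 difference from hFc of the brightest probe of each gene after VEGF-A, VEGF Trap and Dll4-Fc, with bars of 1 standard error from the limma fit. Kcnj8 (−2.13), Ndufa4l2 (−1.83) and Cspg4 (1.61) lay farthest from 0 after VEGF-A, Ndufa4l2 lay highest above hFc after VEGF Trap at 1.22, and all Dll4-Fc points lay within 0.26 of 0. The brightest Abcc9 probe is the one of uncertain target.

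Cspg4 encodes NG2, a membrane proteoglycan that marks pericytes on growing vessels. Probe 1 read 1.23, 1.32, 0.98, 0.97 and 0.96 in the VEGF-A samples, −1.11, −0.84 and −1.03 in the VEGF Trap samples, −0.49, −0.15, −0.66 and −0.68 in the Dll4-Fc samples and −0.54, −0.46, −0.58 and −0.49 in the hFc samples. Every VEGF-A sample was above every other sample and every VEGF Trap sample was below them, while Dll4-Fc and hFc overlapped. The VEGF-A level was 3.05-fold above hFc (log2 difference 1.61), and 4.25-fold above VEGF Trap (log2 difference 2.09, SE 0.125), with 2.25 within slide 3 and 2.00 within slide 4. VEGF Trap against hFc gave −0.48 (SE 0.13), and from −0.61 to −0.42 over the alternatives in processing. Probe 2 followed probe 1, with 1.58 after VEGF-A and −0.44 after VEGF Trap, although only hFc 1 had a spot that was not marked as an outlier. The dim probe 3 is listed 7360 bases from the nearest of the others and was less even in hFc, with values of −0.90, −0.53, −0.93 and 0.26. It gave 0.84 after VEGF-A, with overlap, and 0.43 after VEGF Trap, with overlap, which is opposite in sign to the other 2 probes.

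Of 6 markers of the oligodendrocyte lineage, whose progenitors also carry NG2, 0 passed the limma test against hFc after VEGF-A and 0 after VEGF Trap at an adjusted p of 0.05. At an unadjusted p under 0.05, 2 were lower after VEGF-A, and 1 was higher and 1 lower after VEGF Trap. Their mean level was −0.38 to −0.16 in the VEGF-A samples, −0.20 to −0.16 in the VEGF Trap samples, 0.31 to 0.46 in the Dll4-Fc samples and −0.26 to −0.16 in the hFc samples. After Dll4-Fc 3 of the 6 rose: Olig2 by 2.15, Sox10 by 0.96 and Olig1 by 0.59 (adjusted p = 5.16e-05, 0.0140 and 0.000641), all transcription factors of that lineage. By gene, 3.47% of all rose in that comparison. Cspg4 was 0.02 from hFc after Dll4-Fc on probe 1 (SE 0.121, adjusted p = 0.975 by limma). Its probe 2 gave 0.21 with 1 hFc value, and its dim probe 3 gave 0.40 (adjusted p = 0.465 by limma).

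Pdgfrb encodes the receptor through which pericytes are recruited. Its level was 0.26, 0.37, 0.50, 0.32 and 0.09 in the VEGF-A samples, −0.02, 0.05 and −0.20 in the VEGF Trap samples, −0.36, −0.16, −0.23 and 0.30 in the Dll4-Fc samples and −0.03, 0.01, 0.01 and −0.11 in the hFc samples. The VEGF-A samples lay above those of VEGF Trap and hFc, and the value of Dll4-Fc 4 lay within the VEGF-A range. The log2 difference from hFc was 0.34 after VEGF-A, −0.03 after VEGF Trap and −0.08 after Dll4-Fc (adjusted p = 0.865). VEGF-A against VEGF Trap gave 0.36 (SE 0.129), at 0.30 within slide 3 and 0.50 within slide 4. Pdgfrb thus lay on the opposite side of hFc from Kcnj8, Anpep and Higd1b after VEGF-A.

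Rgs5 encodes a regulator of G-protein signalling that is abundant in pericytes and dampens contraction signals. Its brightest probe gave −0.20 after VEGF-A, −0.48 after VEGF Trap (SE 0.17) and −0.10 after Dll4-Fc (adjusted p = 0.870), with overlap in each case. Probe 2 was more even: it read 0.08, 0.05, 0.22, −0.18 and 0.25 in the VEGF-A samples, −0.28, −0.34 and −0.30 in the VEGF Trap samples, −0.04, −0.14, −0.17 and −0.42 in the Dll4-Fc samples and 0.04, 0.41, 0.30 and 0.28 in the hFc samples. All VEGF Trap and all Dll4-Fc samples lay below all hFc samples on that probe, and the difference from hFc was −0.57 after VEGF Trap (SE 0.118). After Dll4-Fc it fell by 0.46 (SE 0.109, adjusted p = 0.0270), a call lost without hFc 2, 3 or 4 and without Dll4-Fc 3 or 4, each left out in turn. Probe 3, which was dim, gave −0.36 after VEGF Trap, without overlap with hFc, and −0.15 after Dll4-Fc (adjusted p = 0.71). After VEGF-A probes 2 and 3 lay 0.18 and 0.01 below hFc, with overlap.

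Vtn encodes vitronectin, an adhesive protein of plasma and matrix. Its probe was bright, with a mean log2 Cy3 signal of 15.57. It read −0.23, −0.23, 0.53, −0.21 and −0.19 in the VEGF-A samples, 0.33, 0.32 and −0.29 in the VEGF Trap samples, −0.31, −0.08, −0.18 and 0.17 in the Dll4-Fc samples and −0.25, −0.29, −0.18 and −0.27 in the hFc samples. All groups overlapped, and VEGF-A 3 and VEGF Trap 3 stood apart from the rest of their groups. The log2 difference from hFc was 0.18 after VEGF-A (0.03 without VEGF-A 3), 0.36 after VEGF Trap and 0.15 after Dll4-Fc (adjusted p = 0.823). Without VEGF Trap 3 the VEGF Trap difference was 0.57. Of 5 photoreceptor markers measured in every group, 0 passed the limma test against hFc in any of the 3 treatments at an adjusted p of 0.05, with median differences of −0.17, 0.07 and −0.24 after VEGF-A, VEGF Trap and Dll4-Fc. At an unadjusted p under 0.05, 1 was lower after VEGF-A, 2 were higher after VEGF Trap and 1 was lower after Dll4-Fc.

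In the comparison with a test, Dll4-Fc against hFc, 0 of the 19 probes were higher and 1, Rgs5 probe 2, was lower by limma, where 2.65% of all probes were higher and 1.37% lower. At an unadjusted p under 0.05, 0 were higher and 3 were lower. No share of all probes was taken at that threshold, so nothing is read from this count. The 19 differences of Dll4-Fc from hFc ran from −0.46 to 0.40. Between VEGF-A and VEGF Trap, 5 probes were lower and 5 higher without overlap, where 11.4% of all probes were lower and 12.6% higher in that way. The VEGF-A arrays served to choose the genes, so nothing is read from that count.

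**Figure D3:**
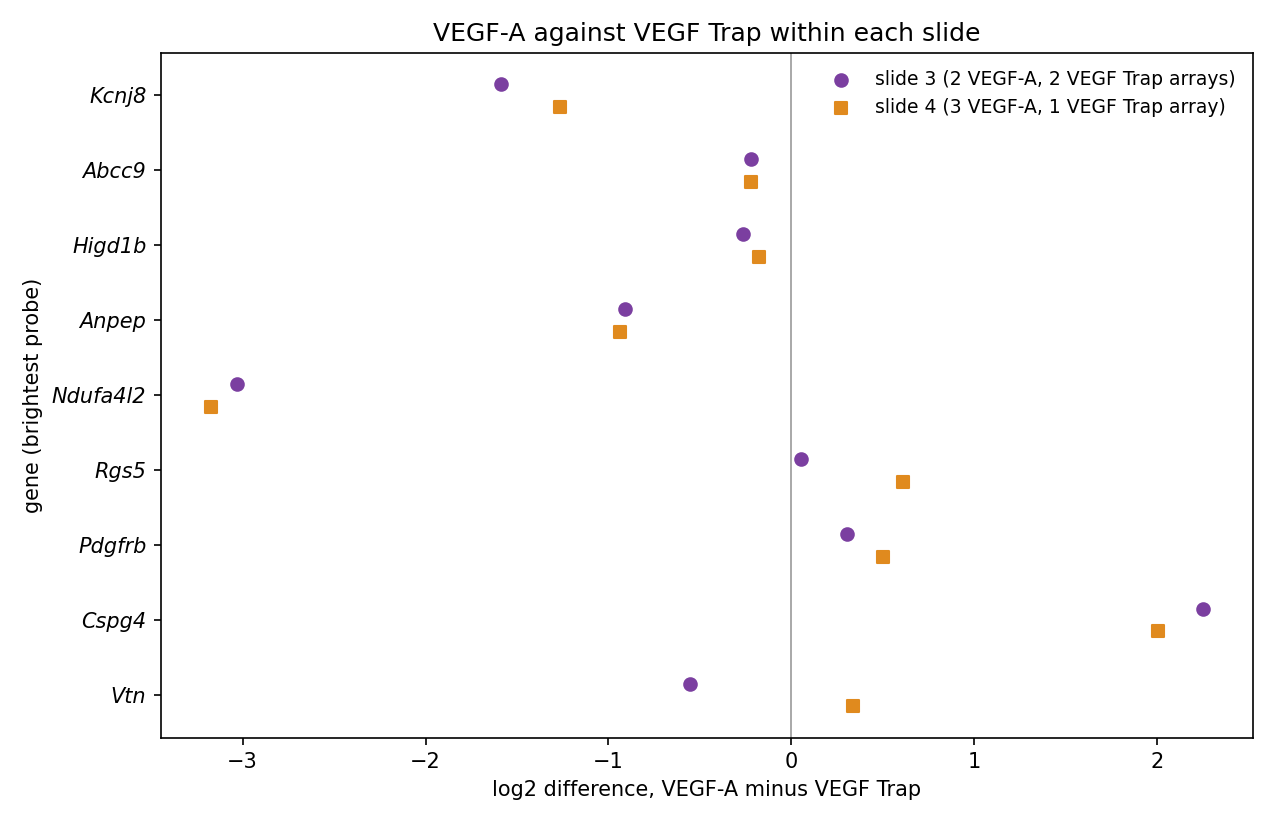
Log2 difference of VEGF-A from VEGF Trap for the brightest probe of each gene, within slide 3 (2 VEGF-A and 2 VEGF Trap arrays) and within slide 4 (3 VEGF-A arrays and 1 VEGF Trap array). Kcnj8, Anpep, Ndufa4l2 and Cspg4 had the same sign and similar size on both slides, and Vtn had −0.56 on slide 3 and 0.33 on slide 4.

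VEGF-A and VEGF Trap are the only pair of treatments that shared slides. On both slides the brightest probes of Kcnj8, Abcc9, Higd1b, Anpep and Ndufa4l2 were lower after VEGF-A, and those of Rgs5, Pdgfrb and Cspg4 were higher. Over both slides, the VEGF-A and VEGF Trap samples overlapped on every probe of Abcc9 and Higd1b and on the brightest of Rgs5. Higd1b probe 2 gave −0.20 on slide 3 and −0.02 on slide 4. The Rgs5 difference on probe 1 was 0.05 on slide 3 and 0.61 on slide 4, where VEGF Trap 3 was the sole array of its group. Rgs5 probe 2 gave 0.37 on slide 3 and 0.40 on slide 4, and the dim probe 3 gave 0.05 and 0.62. Vtn had opposite signs on the slides.

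The genes that recruit pericytes were set beside the members. Of 15 listed, 7 rose and 2 fell after VEGF-A against hFc (median 0.13). Pdgfb, the ligand of Pdgfrb, rose by 2.04 (3 hFc values, adjusted p = 5.20e-08), S1pr1, a receptor through which endothelium strengthens its contacts with pericytes, by 1.01 (adjusted p = 9.61e-07) and Acvrl1, an endothelial receptor for BMP9, by 0.77 (adjusted p = 7.06e-06). By gene, 6.70% of all rose in this comparison. After VEGF Trap 0 rose and 4 fell, where 2.22% of all genes fell. Tek, the angiopoietin receptor, fell by 0.67 (adjusted p = 0.0158), and Eng, an endothelial co-receptor for BMP9, fell by 1.01 (2 hFc values, adjusted p = 0.00554). Tgfb1 fell by 1.1 with 1 hFc value (adjusted p = 0.00804). After Dll4-Fc S1pr1 fell by 1.02 and Sphk1, which makes its ligand, by 0.87 (adjusted p = 6.92e-06 and 1.13e-05), Egfr fell by 0.54 (adjusted p = 0.0225) and Acvrl1 rose by 0.36 (adjusted p = 0.0220).

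Other genes known from mural cells did not share a single direction. Of 18 measured against hFc, 5 rose and 4 fell after VEGF-A (median −0.15), where 6.70% of all genes rose and 4.22% fell. Mcam, the adhesion molecule CD146 that endothelium also carries, rose by 2.41 (adjusted p = 3.39e-11), and the mural transcription factor gene Tbx18 rose by 1.66 (adjusted p = 1.05e-06), with its 2 other probes at 0.64 and 0.20. Cox4i2, a subunit of cytochrome oxidase in pericytes, fell by 1.11 (adjusted p = 3.63e-06). After VEGF Trap 0 rose and 4 fell (2.22% of all genes fell), among them Mcam by 0.54, Foxf2, a transcription factor of brain pericytes, by 0.60 and Art3 by 1.00 (adjusted p = 0.00596, 0.00804 and 0.0237). After Dll4-Fc 0 rose and 1 fell (1.68% of all genes fell), Cox4i2 by 1.3 (adjusted p = 5.01e-06). At an unadjusted p under 0.05, 1 of the 18 was higher and 6 were lower after Dll4-Fc. The Notch receptor of mural cells, Notch3, had differences of −0.01, −0.20 and −0.43 after VEGF-A, VEGF Trap and Dll4-Fc (adjusted p = 0.973, 0.447 and 0.0951) and is named outside the rule for named genes.

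Contractile genes of mural cells were set beside Cspg4. Of 9 listed, 8 rose and 0 fell after VEGF-A against hFc (median 1.42, against −0.05 over all genes), where 6.70% of all genes rose. Tagln, an actin-binding protein of smooth muscle, rose by 3.96, Cnn1, or calponin, by 3.07 and the tropomyosin gene Tpm2 by 2.36 (adjusted p = 4.06e-11, 1.45e-09 and 1.16e-09), and another Tpm2 probe gave 0.45. After VEGF Trap 1 of the 9 fell, the intermediate filament gene Des by 0.87 (adjusted p = 0.00727), and 0 rose. After Dll4-Fc 1 fell, the myosin light chain gene Myl9 by 0.51 (adjusted p = 0.0345), and 0 rose. By gene, 2.22% of all fell after VEGF Trap and 1.68% after Dll4-Fc. Their mean level was 0.85 to 1.21 in the VEGF-A samples, −1.09 to −0.61 in the VEGF Trap samples, −0.97 to −0.62 in the Dll4-Fc samples and −0.94 to −0.71 in the hFc samples. The Kcnj8, Anpep and Higd1b levels thus lay below hFc after VEGF-A in samples whose contractile genes lay above it.

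Markers of endothelium, the other cell type of the capillary, moved with the treatments as well. Of 9, 7 rose and 2 fell after VEGF-A (median 1.07), where 6.70% of all genes rose and 4.22% fell. After VEGF Trap 0 rose and 7 fell (median −0.59), where 2.22% of all genes fell. Among these were Tie1, lower by 0.79, Cldn5 by 0.59 and Pecam1 by 0.65 (adjusted p = 0.000149, 0.00151 and 0.00804). After Dll4-Fc 2 rose, Egfl7 by 0.52 and Tie1 by 0.32 (adjusted p = 0.00177 and 0.0140), and 0 fell, where 3.47% of all genes rose. The mean level of the 7 with a value on every array was 0.53 to 0.63 in the VEGF-A samples, −0.87 to −0.77 in the VEGF Trap samples, −0.10 to 0.07 in the Dll4-Fc samples and −0.31 to −0.21 in the hFc samples. Cspg4 probes 1 and 2 were likewise highest after VEGF-A and lowest after VEGF Trap, and Kcnj8 was not. The part of the amount of vessel in the values of the pericyte genes was not tested.

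**Figure D4:**
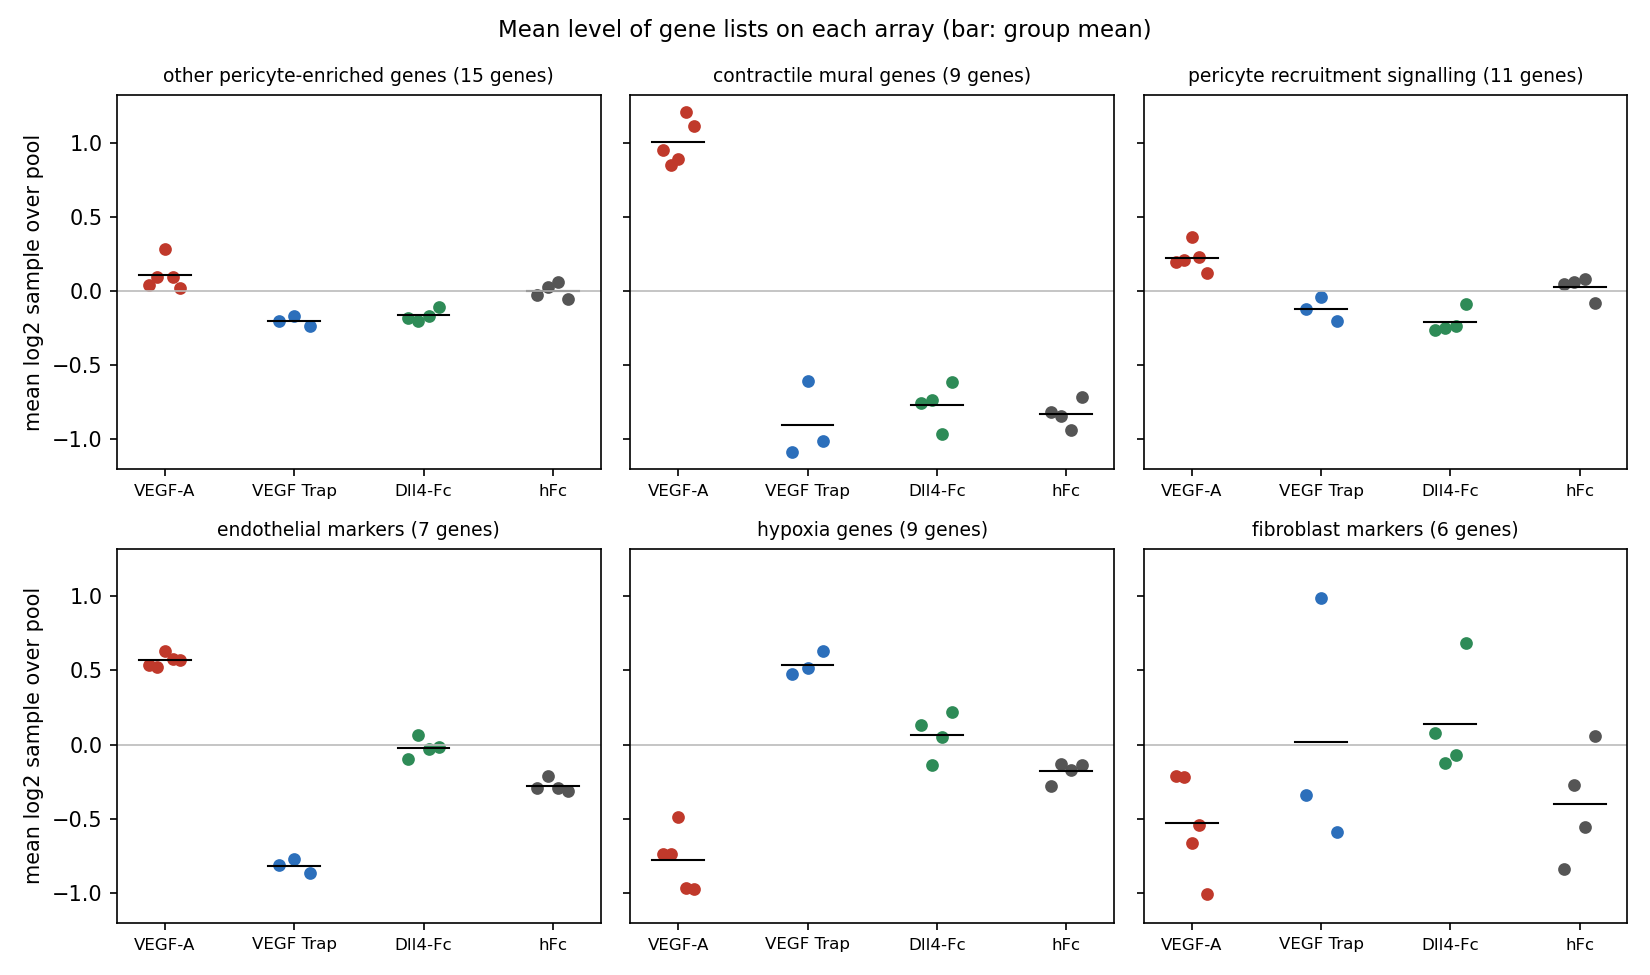
Mean level of 6 gene lists on each array, as log2 of sample over reference pool; points are arrays and bars are group means. The contractile list was above 0.80 in the VEGF-A samples and below −0.60 in all others. The hypoxia list was highest after VEGF Trap and lowest after VEGF-A. The other pericyte-enriched genes lay at −0.24 to −0.17 after VEGF Trap and −0.20 to −0.11 after Dll4-Fc, below the hFc samples (−0.06 to 0.06). After VEGF-A they lay at 0.02 to 0.29 and overlapped with hFc.

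Of markers of fibroblasts, which also lie along vessels, 1 of 6, Col1a1, rose after VEGF-A and 0 of 6 passed the test after VEGF Trap at an adjusted p of 0.05 in limma (1 higher at an unadjusted p under 0.05). Their mean level was −1.01 to −0.21 in the VEGF-A samples, −0.59 to 0.99 in the VEGF Trap samples, −0.13 to 0.69 in the Dll4-Fc samples and −0.84 to 0.06 in the hFc samples. After Dll4-Fc 1 of the 6, Col3a1, rose by 0.90 (adjusted p = 0.00515). Of 6 astrocyte and Müller glia markers, 2 rose and 2 fell after VEGF-A: the log2 differences were 2.36 for the filament gene Gfap, −1.79 for the water channel gene Aqp4 and −1.53 for the glutamine synthetase gene Glul (adjusted p = 4.45e-08, 0.000141 and 0.000802). By gene, 6.70% of all rose and 4.22% fell after VEGF-A. After VEGF Trap 0 of the 6 passed the limma test (at an unadjusted p under 0.05, 0 were higher and 1 lower). After Dll4-Fc 1 rose and 3 fell (median −0.87), with Gfap at 1.13, Rlbp1 at −1.11 and Slc1a3 at −0.94 (adjusted p = 0.000474, 6.43e-05 and 0.00260). The mean level of the 6 was −0.61, −0.67, −0.61 and 0.0028 in Dll4-Fc 1 to 4, and −0.01 to 0.07 in the hFc samples. Dll4-Fc 4 thus lay within the hFc range. After Dll4-Fc 6 of 7 microglia and myeloid markers were higher than after hFc, among them Ptprc by 1.93 and Aif1 by 1.5 (adjusted p = 0.000260 and 4.54e-07). The marker P2ry12 was lower, at −0.51 (adjusted p = 0.00595). By gene, 3.47% of all were higher and 1.68% lower after Dll4-Fc. The part of these other cell types in the values of the pericyte genes was not tested.

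The genes whose pattern over the 16 arrays was most like each member were taken from 14504 genes measured on every array. Kcnj8 was most like Anpep (Pearson r = 0.974), Epor, the erythropoietin receptor gene (r = 0.973), and Igsf5 (r = 0.958), and Anpep had the same 3 partners with Kcnj8 in its own place. Epor was 1.18 below hFc after VEGF-A, 0.37 below it after VEGF Trap and 0.22 above it after Dll4-Fc. Higd1b was most like AU021092 (r = 0.966), which also led for Abcc9 probe 1 (r = 0.927), and that gene lay 1.16 below hFc after VEGF-A and 0.90 below it after VEGF Trap. Ndufa4l2 was most like Clic5 (r = 0.973), and Cspg4 was most like Plxnd1, an endothelial semaphorin receptor gene (r = 0.990), Dysf (r = 0.989) and Zwilch (r = 0.986). Pdgfrb was most like Fgfbp3 (r = 0.957), Vtn like Dnah9 (r = 0.959) and Rgs5 like Cbx1 (r = 0.873).

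Among the 9 members, Kcnj8, Abcc9 (probe 1, of uncertain target), Higd1b and Anpep correlated with each other at 0.86 to 0.97. The mean of Abcc9 probes 2 to 4 correlated with Kcnj8 at 0.78. Cspg4 and Ndufa4l2 correlated at −0.94, and Cspg4 and Kcnj8 at −0.84. Rgs5 and Vtn correlated with no other member beyond 0.43 in size. These correlations describe 16 arrays that share 4 treatments, slides and the pool, and no test was made of them. The members were also chosen on differences between some of these arrays.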

How the data were processed

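Retinal RNA of 16 samples was measured on 2-colour mouse arrays of 43537 spots, with the sample in Cy3, the pool in Cy5 and no dye swap, per the labels. Per the file headers, intensity values were written by Feature Extraction 9.5.1.1, which also made the deposited log10 ratio of Cy5 over Cy3 after background subtraction and dye normalization. A deposited table of natural log ratios by the authors matched these ratios (r of at least 0.999 on each array) and served as an alternative. Its scale and direction followed from that match, and its columns were not centred, with medians of −0.00581 to 0.0218 and 25.1 to 27.5% of cells empty.

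The log10 ratios were turned to log2 of sample over pool. Spots marked as outliers were left out, spots of a probe were averaged, and 39787 of 43426 probes were kept, those with a Cy3 signal well above background on 3 or more arrays. Of these, 38886 had an hFc value. Probes were named through a RefSeq table. Treatments were compared in a single fit of 4 groups with limma 3.58.1 (statmod 1.5.0 for the random block, data.table version 1.17.8, in R 4.3.3), 2-sided, with Benjamini-Hochberg adjustment over all probes within a comparison at 0.05 (12 residual and 2.41 prior degrees of freedom). The number of arrays limits the precision. The method was tested on simulated data. A gene was represented by its brightest probe, and from each list the 3 called genes with the smallest p were named. No share of all probes or genes was taken at an unadjusted p, so counts at that threshold have no share beside them. The members, lists and tests were chosen with earlier results of these data known, and the planned test of VEGF Trap against hFc is therefore not given for the members. For the probe positions, the genome build is not given in the sources used.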

Additional observations from a re-analysis of the deposited data

Results flagged for a closer look

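Vtn in VEGF-A 3 read 0.53 (log2 of sample over pool), whereas the other 4 VEGF-A samples lay between −0.23 and −0.19. This sample stood farther from its group than Dixon's test allows, and it was the only such value among 55 tests of groups of 4 or 5 samples, of which chance gives about 1 in 20. On the same array, Kcnj8 and Higd1b were the least lowered of the 5, at −1.07 and −0.34, and the mean level of the photoreceptor markers was −0.38, at the upper end of a range of −0.80 to −0.38 in the VEGF-A samples.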

How the results depend on the processing

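The alternatives were normexp with loess on the intensities, outlier spots kept, no filter on dim probes, the deposited series matrix, slide as a random block, hFc 1 and hFc 2 averaged for their shared title code, arrays of 1 slide only and each array left out. The VEGF-A differences from hFc kept their direction in every alternative. For VEGF Trap against hFc, 1046 probes were called, but 2503 with normexp and loess, 539 with hFc 1 and hFc 2 averaged and 259 to 933 with single arrays left out, the fewest without VEGF Trap 1. Of the members' probes, 1 was higher without overlap, but 2 with VEGF Trap arrays of slide 3 only and 1 to 2 with single arrays left out. For VEGF-A against VEGF Trap, 6714 probes were called, but 4183 on slide 3, 3311 on slide 4 and 4173 to 6610 with single arrays left out. The members' probes without overlap, 5 each way, became 8 higher and 9 lower on slide 4, where VEGF Trap has 1 array, and 5 to 9 lower with single arrays left out. For Dll4-Fc against hFc, 0 to 1 of the members' probes were called in each direction with single arrays left out, the higher being Cspg4 probe 3 without hFc 4 (0.66, adjusted p = 0.00764). There, uncalled values turned sign with normexp and loess for Kcnj8 (−0.042), Anpep (0.11) and Cspg4 (−0.12). With single arrays left out, Anpep ran from −0.12 to 0.033 (also 0.0035 and 0.0095), Cspg4 from −0.094 to 0.083 and Rgs5 from −0.23 to 0.0013. The cause was not tested beyond the smaller number of arrays. With slide as a random block the consensus correlation was −0.02, and Rgs5 probe 2 was again the one member called for Dll4-Fc. That correlation cannot show an offset of slide 1 or slide 2, which held only hFc and only Dll4-Fc arrays. No paired analysis was possible because the labels number no replicates and the title codes tie only VEGF-A 4 to VEGF Trap 3, fewer than 2 pairs.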
